A study of Mus musculus with 6 samples.

Results

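The genes described here encode the proteins of the cytosolic ribosome. They were taken by name: every symbol of the feature table that begins with Rpl or Rps and a digit, together with Rplp0, Rplp1, Rplp2 and Rpsa, leaving out processed copies marked -ps and the Rps6k kinases. The rule gave 86 of 32286 features, of which 52 carry large-subunit names and 34 small-subunit names. Of the 86, 9 are copies or like-named genes (Rpl3l, Rpl7l1, Rpl10l, Rpl22l1, Rpl36al, Rpl39l, Rps19bp1, Rps27l and Rps27rt), and Rps19bp1 encodes a binding partner of Rps19 and not a ribosome subunit. In summed endothelial counts 84 members passed the filter on low values. The other two were Rpl10l, with 0 UMIs in all cells kept, and Rpl3l, with 11 UMIs (a UMI is a molecular barcode that marks 1 captured mRNA).

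The data are single-cell 3′ RNA-seq of brain microvessels captured with PECAM1 beads from mice of about 3 months. Both groups carried 2 floxed alleles of Cldn5, the main claudin of brain endothelial tight junctions, and 2 alleles of a YFP reporter at Rosa26, and both received tamoxifen by gavage on 3 days (100 µl of 20 mg/ml). The 3 control libraries have no Cre. The 3 iECKO libraries carry Cdh5-creERT2, a tamoxifen-inducible Cre driven by the endothelial Cdh5 promoter. Whether each library came from a single mouse or from pooled mice is not given, so p-values measure the spread between libraries, which may be technical.

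Each ribosome holds 1 copy of nearly every ribosomal protein, so cells that build ribosomes need these proteins in matched amounts. Most of their mRNAs begin with a C followed by a run of pyrimidines, the 5′ terminal oligopyrimidine (TOP) tract, through which mTORC1 and Larp1 control their translation. Ribosomal protein mRNAs are among the most abundant in a cell, and their share of all mRNA differs between cell types.

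TOP tracts were visible at the annotated starts of some members. RefSeq (GRCm38.p6) had a start for 66 of the 86. Of the 57 that are not copies by name, 13 (22.8%) had C followed by at least 4 more of C or T, read on the gene's strand from the annotated first base, against 799 of 26959 other genes (2.96%). A tract of this kind within 5 bases of the start was found in 27 of 57 members (47.4%) and in 21.1% of other genes. The 4 starts below belong to members on which later results turn; each is 30 bases with the tract in capitals.
Rpl35 (chr2:39005117-39005146, minus strand): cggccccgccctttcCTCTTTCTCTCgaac
Rpl38 (chr11:114668565-114668594, plus strand): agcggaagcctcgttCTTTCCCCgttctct
Rps6 (chr4:86857353-86857382, minus strand): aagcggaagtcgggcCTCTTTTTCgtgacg
Rps27 (chr3:90213634-90213663, minus strand): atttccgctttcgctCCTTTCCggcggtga
Members with and without a tract at the start moved alike: in venous against capillary cells the median log2 change was 0.81 for 14 members with it and 0.82 for 49 without, and in pericytes against endothelial cells it was -1.07 and -0.98. These medians are descriptions.

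Sequencing gave 15727366 to 49350802 UMIs and 2714 to 7420 barcodes per library, with at most 16 barcodes shared by any pair of libraries. After filtering, 1871 to 4761 endothelial cells per library were kept. Cldn5 in endothelial cells stood at 4589, 3998 and 5382 CPM (UMIs scaled to a common library total) in control libraries, and the iECKO values were 2722, 2204 and 3124, with no Cldn5 UMI in 2.44% to 4.54% and 15.5% to 19.8% of cells. Where in the gene the loxP sites lie is not given, so UMIs at its 3′ end may not report the deletion. The YFP feature had 0 UMIs in every library. Cells were clustered without the 86 members, but on genes that vary with them, and zones and classes were named from markers. Control replicate 2 and iECKO replicate 2 stood apart: Gm42418 and AY036118, which overlap ribosomal RNA, took 19.3% and 16.5% of their endothelial UMIs, against 2.98% to 8.41% in the other libraries.

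The summed share of members was lowest in pericytes and highest in lymphocytes, while the ranges of endothelial cells, smooth muscle cells and microglia overlapped. Members took 10.5%, 7.32% and 10.3% of endothelial UMIs in control libraries (mean 9.36 ± 1.77 SD, n = 3) and 9.40%, 6.85% and 9.62% in the iECKO libraries (8.62 ± 1.54, n = 3). Pericytes, the mural cells of capillaries, were lowest at 3.19% to 6.62% over the 6 libraries, a range that overlapped those of microglia and smooth muscle cells. Microglia, the resident macrophages of brain, stood at 5.87% to 8.59%, and smooth muscle cells at 6.06% to 10.6%. Lymphocytes were far higher: in libraries with at least 10 such cells, B cells stood at 23.1% to 32.1% (5 libraries) and T or NK cells at 34.6% to 42.0% (4 libraries). These ranges do not overlap those of any vascular class, though they rest on few cells (10 to 49 a library). Within the endothelium, venous cells were highest at 16.1%, 11.6% and 15.02% in the controls, against 9.55%, 6.32% and 9.08% in capillary and 10.6%, 7.34% and 9.89% in arterial cells of the same libraries. A share is relative to all UMIs of the same cells, so more ribosomal protein mRNA and less of other mRNA cannot be told apart.

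**Figure D1:**
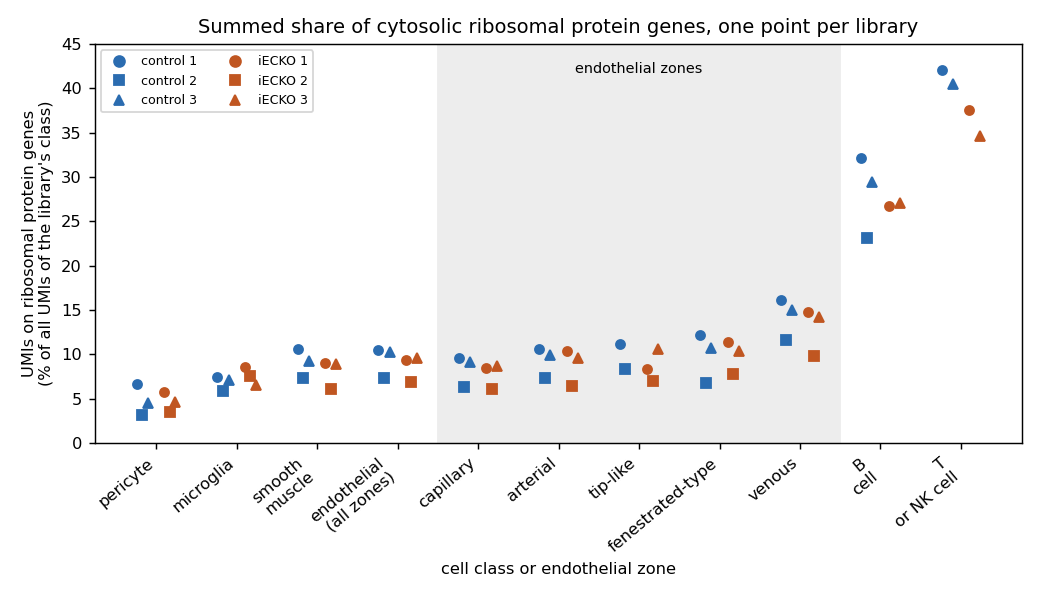
Percent of UMIs on the 86 ribosomal protein genes (vertical axis) by cell class and endothelial zone (horizontal axis), one point per library with at least 20 cells (10 for B and T or NK cells); colour gives the genotype and symbol shape the replicate number. Pericytes sit lowest at 3.19% to 6.62%, a range that overlaps those of microglia and smooth muscle cells. Venous cells stand above the other zones within each library, and lymphocytes lie above all vascular classes.

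Single members spanned a wide range in endothelial cells. With 3′ counting each mRNA gives UMIs at 1 end, so CPM were compared between genes without dividing by length. The median of the 84 members was 1066 CPM in the controls. Rps29, a small zinc-binding protein of the small subunit, was highest at 4010, 3031 and 3223 CPM in the controls. Rpl38 followed at 3436, 2358 and 2733 CPM, then Rpl41 and Rpl13 with control means of 2452 and 2151 CPM. The 77 members that are not copies by name lay between 386 CPM (Rpl5, which binds 5S rRNA) and 3421 CPM (Rps29). All 7 tested copies by name lay lower. Rpl36al had a control mean of 268 CPM, Rpl22l1 249 and Rps27l 222, whereas Rpl7l1 had 59.0, Rps27rt 42.9, Rps19bp1 31.7 and Rpl39l 1.23. For 31 members at least 50% of the 90-base windows near the transcript's end also occur in another gene's transcript. Rps27 and Rps27rt share 98.4% and 89.8% of theirs, Rpl10 and Rpl36a 100% each, Rpl35 78.1% and Rpl36al 75.9%. How the counting divided reads between such genes is uncertain, also in the comparisons below.

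Venous endothelial cells had more of nearly every member. Against capillary cells of the same control libraries, 82 of 83 tested members were higher and 0 lower by edgeR's quasi-likelihood test (Benjamini-Hochberg adjusted p under 0.05 over all genes), where 22.4% of the 11492 genes tested were higher and 19.2% lower. The members' median log2 change was 0.81 and that of all genes 0.01. Rps20, near the head of the small subunit, went from 1868, 1252 and 1537 to 4130, 2709 and 3303 CPM (1.12 ± 0.05 SE, adjusted p = 2.8e-15). Every venous value lay above every capillary value. Rplp0, the base of the ribosomal stalk that recruits translation factors, went from 813, 520 and 629 to 1688, 1122 and 1269 CPM (1.06 ± 0.05, adjusted p = 1.6e-14). Rpl36a, Rps28 and Rps2 rose by 1.08, 1.06 and 1.05. The exception was Rpl7l1, a like-named relative of Rpl7, with 61.2, 51.1 and 57.9 CPM in capillary and 71.6, 48.1 and 69.8 in venous cells (0.14 ± 0.09, adjusted p = 0.23). Rpl22l1, the paralog of Rpl22, kept pace at 1.01 ± 0.07.

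Other translation genes were higher in venous cells in part. Over all genes of this comparison 22.4% were higher and 19.2% lower. Among ribosomal proteins under other symbols Fau rose by 0.62 and Rack1 by 0.53. Of 30 elongation and initiation factors 20 rose and 0 fell, with Eef1b2 at 0.90 and Eef1a1, which carries aminoacyl-tRNA to the ribosome, at 0.88. Of 44 ribosome biogenesis genes 15 rose and 1 fell, and their median of 0.13 was well below that of the members. Npm1, a nucleolar chaperone of ribosome assembly, rose by 0.62. Among 28 genes of mTORC1 and TOP regulation 5 rose and 3 fell, both shares below those of all genes. Ddit4, an inhibitor of mTORC1, stood at 1.61. Of 78 mitochondrial ribosomal protein genes 43 rose and 1 fell, with a median of 0.26.

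Depth moved with the zone. Venous cells had a median of 9499, 9789 and 12640 UMIs in the controls, against 3394, 3492.5 and 4253 in capillary cells, and the share of members rose with depth among capillary cells. Among cells of 4000 to 8000 UMIs 80 of 83 members were still higher in venous cells and 0 lower, with 8.51% of all genes higher and 6.86% lower, and a member median of 0.74. The 5 erythrocyte markers summed to 47 to 61 CPM in venous and 139 to 256 CPM in capillary cells of the controls. In the iECKO libraries 81 of 83 members were higher in venous cells, where 14.8% of genes were higher and 12.1% lower, with a median of 0.75. The interaction of genotype and zone passed for 0 members in edgeR (5 of 11867 genes, 0.0421%). At an unadjusted p under 0.05, a level to which that share of genes does not apply, the same edgeR test gave 1 member.

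**Figure D2:**
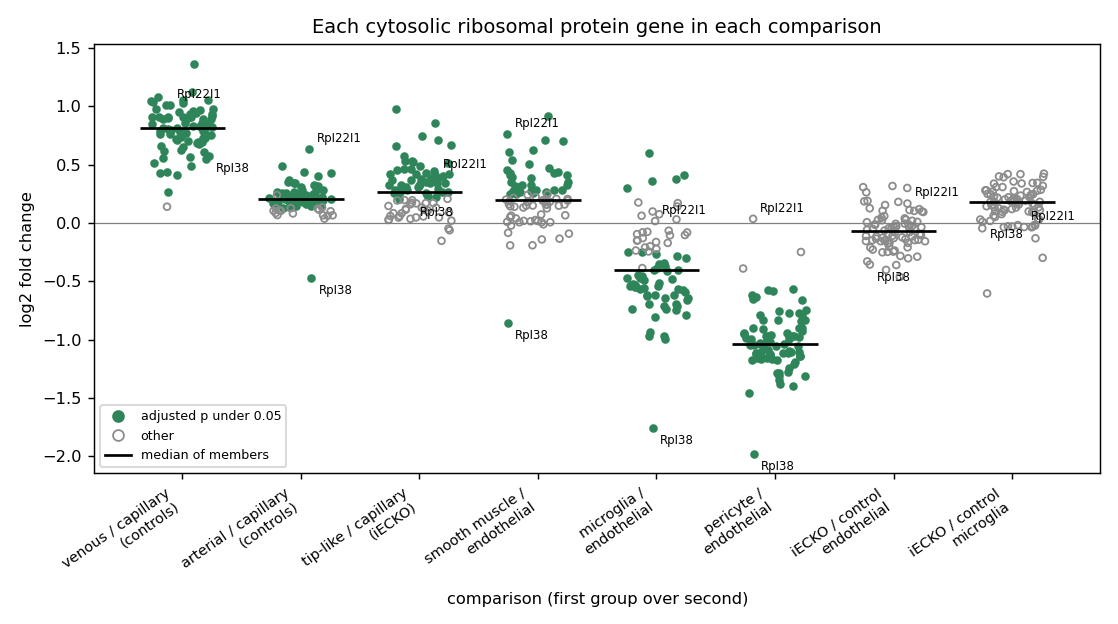
Log2 fold change of each tested member (vertical axis) in 8 comparisons (horizontal axis); filled points passed an adjusted p of 0.05 and the bar is the members' median. Nearly all members lie above 0 in venous cells (median 0.81) and below 0 in pericytes (median -1.04), the genotype comparisons have no filled point, and Rpl38 lies below the other members in the arterial, smooth muscle, microglia and pericyte comparisons.

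The arterial difference was small and depended on 1 capillary subcluster. Against all capillary cells of the controls, 65 of 83 members were higher and 1 lower (21.4% and 16.6% of all genes), with a median of 0.20. Rpl22l1 led with 230, 175 and 183 CPM in capillary and 333, 285 and 288 CPM in arterial cells (0.63 ± 0.07, adjusted p = 4.8e-08). Rpl10, a late-joining protein of the large subunit, rose by 0.49 ± 0.06, Rpl3 by 0.44, Rps6 (the substrate of S6 kinase) by 0.43 and Rpsa by 0.37. Rpl38 went the other way, from 3531, 2377 and 2702 CPM in capillary to 2540, 1663 and 2011 in arterial cells (-0.47 ± 0.05, adjusted p = 1.6e-08). It was lower in each of the 3 libraries, while the group ranges overlapped. In the iECKO libraries 23 members were higher and 1 lower (13% and 11.8% of genes). Among control cells of 4000 to 8000 UMIs 57 were higher and 1 lower (15.2% and 12.1%).

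That subcluster of 4112 capillary cells, led by Gm26917, Ivns1abp and Unc5b, had an unusually low share of members. Its control values were 3.67%, 3.30% and 4.56% and its iECKO values 3.73%, 3.76% and 4.51%, whereas the other 3 capillary subclusters lay between 6.17% and 12.1%. Its median of 3683.5 UMIs per cell was within the range of the others (3000 to 9208), and Malat1, a nuclear RNA, took 2.83% to 3.97% of its UMIs, against 2.34% to 4.94% in the others. With it left out, a choice made after seeing the data, 4 members were higher and 34 lower in arterial cells (13.4% and 11.9% of all genes). The median was -0.10, so the direction for most members turned. Leaving out capillary cells with a low share raises the capillary side, and no arterial cells were left out. The sense of this shift was therefore fixed by the choice, here and in other comparisons with capillary cells, and only its size is informative. Rpl22l1 (0.35), Rpl10 (0.17), Rps6 (0.17) and Rpl3 (0.13) were the 4 higher, and Rpl38 stood at -0.77. The venous result did not turn: 81 of 83 members were higher and 0 lower without it (16.9% and 13.9% of all genes), with a median of 0.53.

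**Figure D3:**
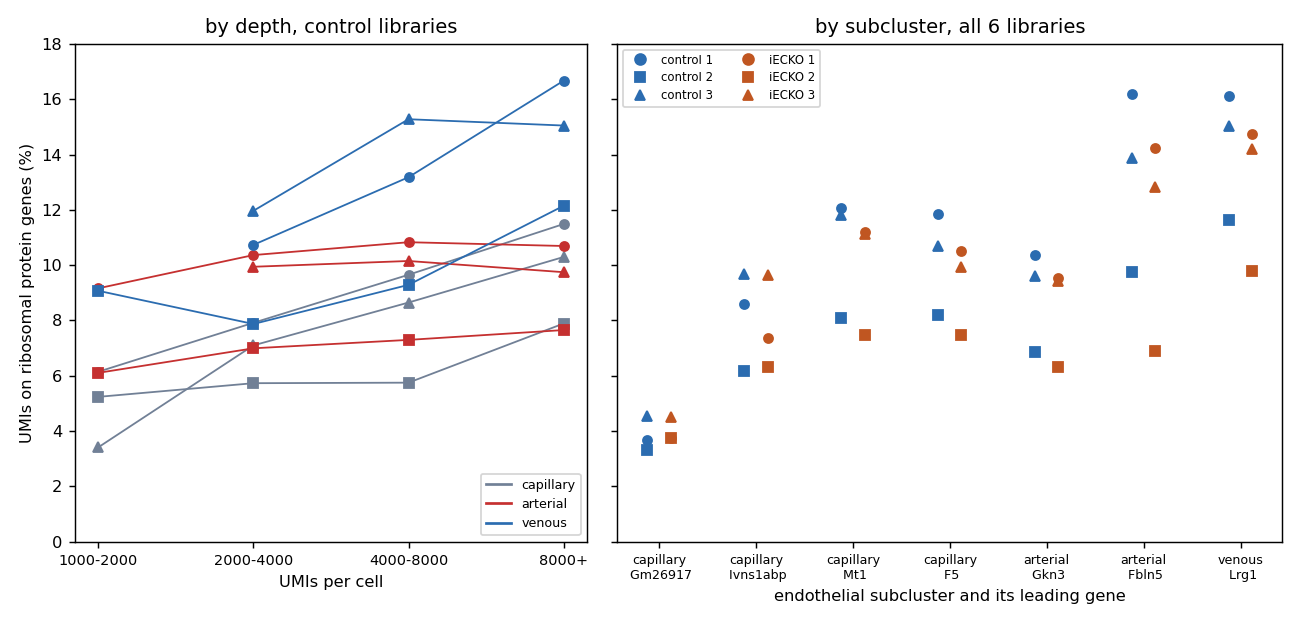
Percent of UMIs on members (vertical axes) by UMIs per cell in the 3 zones of the control libraries (left) and by endothelial subcluster, named by its leading gene, in all 6 libraries (right). Symbol shape gives the replicate number; at 4000 to 8000 UMIs venous cells stand above capillary cells in each library, and the capillary subcluster led by Gm26917 lies at 3.30% to 4.56% in every library.

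Pericytes had lower values of almost all members. Against endothelial cells of the same 6 libraries, 80 of 83 members were lower and 0 higher, where 25% of 9697 genes were lower and 20.8% higher, and the median log2 change was -1.04 (all genes -0.10). Scaling by RLE factors moved the median of all genes to 0.01 and that of members to -0.93, with the same counts. Rpl38 changed most, from 3484, 2394 and 2722 CPM in endothelial cells to 867, 553 and 622 CPM in pericytes of the controls, and from 2699, 1648 and 2220 to 875, 458 and 496 in the iECKO libraries (-1.98 ± 0.12, adjusted p = 4.7e-20). No pericyte value reached any endothelial value. Rps20, Rps7, Rpl34, Rpl32 and Rpl27a fell by 1.46, 1.40, 1.39, 1.35 and 1.31. The 3 members that did not pass were all copies or like-named: Rpl22l1 at 0.04 ± 0.14, Rps19bp1 at -0.25 ± 0.29 and Rpl7l1 at -0.39 ± 0.20. Rpl22l1 had 300, 229 and 216 CPM in control pericytes against 287, 221 and 246 in endothelial cells, with overlapping ranges. Fau and Rack1 fell by 1.06 and 0.90. Of 30 translation factors 13 fell and 0 rose, and of 42 biogenesis genes 9 fell and 0 rose. Pericytes were few (40 to 83 a library) and shallow (medians of 2057 to 3281 UMIs), and Malat1 took 6.03% to 9.31% of their UMIs against 2.55% to 3.84% in endothelial cells. The 10 endothelial markers summed to 721 to 1279 CPM in pericytes and 10507 to 13025 CPM in endothelial cells. Smooth muscle markers, some of which mural cells share, summed to 3403 to 10111 CPM in pericytes. The part of these in the result was not tested.

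Microglia departed from endothelial cells gene by gene. There, 52 of 83 members were lower and 5 higher, against 36.5% and 28.5% of all genes, so the share higher was below and the share lower above the background. The median was -0.41 for members and -0.14 for all genes; RLE factors gave -0.28 and -0.01, with 43 lower and 8 higher. Rpl38 again fell most, to 882, 784 and 637 CPM in control and 974, 736 and 517 CPM in iECKO microglia (-1.76 ± 0.12, adjusted p = 4.2e-19). Rps19, mutated in Diamond-Blackfan anaemia, fell by 1.00, Rpl41 and Rpl31 by 0.97 each, Rps20 by 0.93 and Rps14 by 0.81. The 5 that rose were Rps19bp1 (0.60 ± 0.18), Rpl36al (0.41 ± 0.11), Rpl10 (0.38 ± 0.11), Rpl7l1 (0.36 ± 0.13) and Rps9 (0.30 ± 0.11). Rpl36al had 214 to 347 CPM in endothelial cells and 333 to 441 CPM in microglia, and its X-linked counterpart Rpl36a fell by 0.69 ± 0.13 (adjusted p = 4.7e-06). Rpl36al shares 75.9% and Rpl36a 100% of their 3′ windows with other genes' transcripts, so this contrast is uncertain. Without control replicate 1 or control replicate 3 Rpl7l1 no longer passed, and without iECKO replicate 1 Rps9 did not. Of 30 translation factors 17 fell and 4 rose, whereas of 42 biogenesis genes 14 rose and 6 fell. Endothelial markers summed to 155 to 334 CPM in microglia.

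Smooth muscle cells, compared as an addition made after seeing the data, had 34 members higher and 1 lower (28.9% and 33.2% of all genes), with a median of 0.20. With no filter on low counts, a fit to which those shares of all genes do not apply, 17 were higher and 1 lower. The plain summed share pointed the other way from this median. Their share minus that of endothelial cells was -0.483 percentage points (SD 0.467), though 0.562 as a mean over cells. The part of the scaling in this was not tested, and the median of all genes is not given here. Rpl10 rose by 0.91 ± 0.11, Rpl22l1 by 0.76, Rpl10a by 0.71 and Rpl21 by 0.70. The only member that fell was Rpl38 (-0.86 ± 0.11, adjusted p = 2.9e-09).

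Rpl38 was thus called lower than in endothelial cells in each of the other classes, and in smooth muscle cells no other member was. Rpl38 is known from a mouse mutant with patterning defects of the axial skeleton. Only annotated protein-coding, long intergenic, antisense and processed-transcript genes were searched near Rpl38. The next of these on its strand, Ttyh2, begins 3100 bases beyond its end on GRCm38, and none of them overlaps it. Ttyh2, looked up after Rpl38 stood out, changed by -3.97 in microglia, -1.05 in pericytes, -4.29 in smooth muscle and -2.32 in arterial cells, the sign of Rpl38 in each, but by -1.01 in venous cells, where Rpl38 rose by 0.57. Whether reads beyond the end of Rpl38 enter its counts was not tested. Of the 3′ windows of Rpl38, 45.1% also occur in Gm8129 or Rpl38-ps2.

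**Figure D4:**
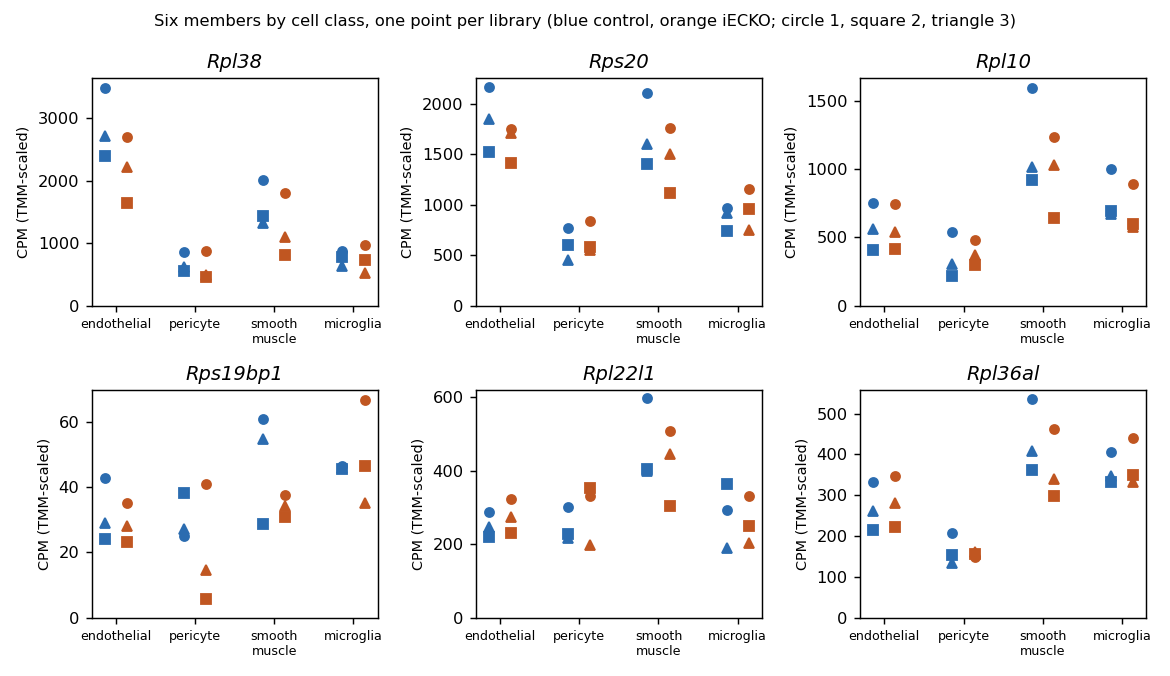
TMM-scaled CPM (vertical axes) of 6 members in 4 cell classes (horizontal axes), one point per library, with colour for genotype and shape for replicate number. Rpl38 is highest in endothelial cells in every library, Rps20 is low in pericytes and microglia, Rpl10 and Rpl36al are higher in smooth muscle and microglia than in pericytes, and Rpl22l1 does not separate pericytes from endothelial cells.

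Many members differed between replicate numbers. In endothelial cells, with genotype in the model, replicate number passed for 50 of 84 members, where 14% of 13558 genes passed. All 50 were lower in replicates 2 and 3 than in replicate 1. Of the 84, 71 were lowest in replicate 2 of both groups, and 71 were highest in replicate 1 of both. Rpl35, a large-subunit protein near the nascent-chain exit, had 1109, 416 and 578 CPM in control replicates 1 to 3, while iECKO replicates 1 to 3 had 759, 303 and 464. Its replicate 2 was lower by 1.37 on the log2 scale and its replicate 3 by 0.82 (adjusted p = 0.0013). Rpl10, Rps27, Rpl9, Rps19bp1 and Rpl39 had replicate 2 values of -0.89, -0.77, -0.75, -0.74 and -0.72. The count rests on replicates 2 and 3: without control replicate 2 or without iECKO replicate 2 it was 6 (790 of 13965 and 897 of 13998 genes), and without iECKO replicate 3 it was 10 (632 of 14005 genes). Computed on UMIs without mitochondrial genes, Gm42418 and AY036118, the summed share was 11.9%, 9.54% and 10.98% in control libraries and 10.7%, 8.67% and 10.4% with iECKO, with replicate 2 still lowest. The labels do not say what a replicate number marks.

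**Figure D5:**
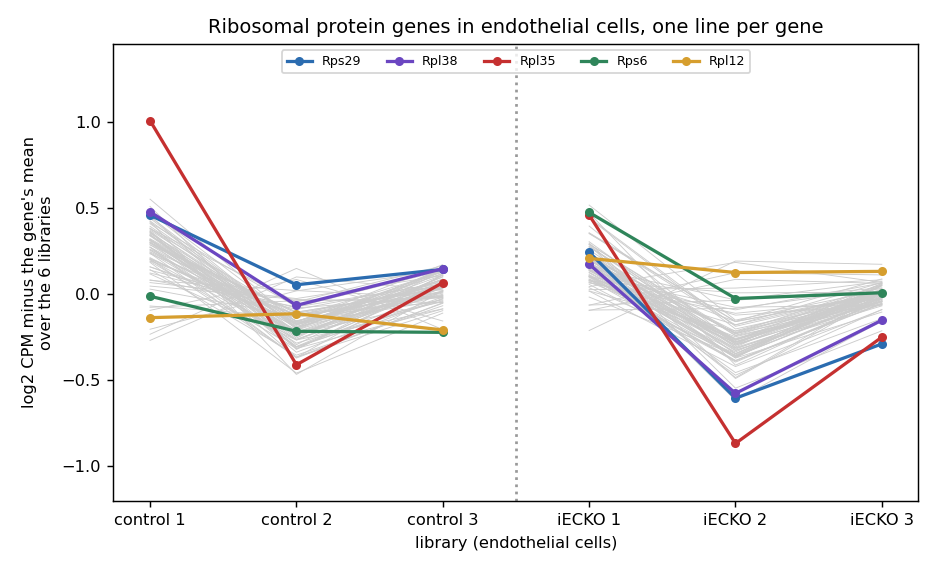
Log2 CPM in endothelial cells minus the gene's mean over the 6 libraries (vertical axis) by library (horizontal axis), one line per member with a control mean of at least 100 CPM; 5 members are coloured. Most lines drop in replicate 2 of both groups, Rpl35 most of all, and the 2 groups of libraries overlap.

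In the pooled endothelial cells no member passed between iECKO and control libraries. In this fit 0 of 84 members passed, where 1 of 13216 genes did (0.00757%, the gene Prnd). At an unadjusted p under 0.05, a level to which that share of genes does not apply, edgeR gave 0 members. DESeq2 called 165 genes and 0 members. With replicate number as a block 226 of 13558 genes (1.67%) and 0 members passed, Rpl35 being closest (adjusted p = 0.050), though 18 of 84 members had an unadjusted p under 0.05 in that fit, as did 2430 of 13558 genes. In the blocked fit 1 member passed without the first pair, Rps29 (-0.55, adjusted p = 0.037), and 1 without the third, Rpl35 (-0.54, adjusted p = 0.037). The share of genes that passed the full blocked fit does not apply to these fits, so their counts have no background here. The members' median was -0.07, with 25 above 0 and 59 below. It was -0.19 without control replicate 2, -0.21 without iECKO replicate 1, 0.04 without control replicate 1 and 0.02 without iECKO replicate 2. The members with the smallest p were Rpl12 (0.31 ± 0.15, adjusted p = 0.72), Rpl7l1 (0.30 ± 0.15) and Rps6 (0.32 ± 0.19) above 0, and Rps27rt (-0.21 ± 0.12), Rps21 (-0.33 ± 0.20) and Rps29 (-0.40 ± 0.25) below. The pooled cells differ in makeup, since the tip-like capillary state described later held 2524 of 4637 endothelial cells in iECKO replicate 1 and 19 to 23 cells in each control. Rpl12, Rpl7l1 and Rps6 were higher in that state by 0.67, 0.58 and 0.46, and in capillary cells without it their genotype changes were 0.13 ± 0.15, 0.11 ± 0.12 and 0.22 ± 0.16. Rps29 had 3456, 1921 and 2389 CPM in the iECKO libraries against 4010, 3031 and 3223 in the controls, and the ranges overlapped. On simulated counts with these library sizes the unblocked test recovered 88.9% of genes changed 3-fold but 16.3% of those changed 1.5-fold, and the blocked one 94.7% and 59.8%. The changed genes were drawn at random from all tested genes, so these rates are not those of the members. None of the other lists had a gene that passed (30 translation factors, 44 biogenesis genes, 28 of mTORC1 and TOP regulation, 78 mitochondrial ribosomal protein genes).

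Within single zones, fitted as an addition after seeing the data, 0 members passed without the block, where the share of all genes was 0.0365% (arterial), 0.00820% (capillary) and 0% (venous). With it, 2 passed in arterial cells, Rpl38 (-0.52 ± 0.12, adjusted p = 0.014) and Rpl35 (-0.44 ± 0.11, adjusted p = 0.029), where 0.755% of genes were lower. The same 2 passed in capillary cells, at -0.44 ± 0.10 (adjusted p = 0.028) for Rpl38 and -0.52 ± 0.10 (adjusted p = 0.0071) for Rpl35, where 0.584% were lower. In venous cells 0 passed (0.292% of genes). These calls rest on the second pair: without it the adjusted p values in capillary cells were 0.67 for Rpl38 and 0.30 for Rpl35, and in arterial cells 0.17 and 0.23, at changes of -0.35, -0.50, -0.40 and -0.37. Rpl35 in arterial cells also missed without the first pair (adjusted p = 0.056). In smooth muscle cells 0 passed without the block (0.0293% of genes) and 1 member, Rps28, passed with the block (-0.58 ± 0.14, adjusted p = 0.033, 0.0949% of genes lower) and did not with any pair left out (adjusted p from 0.077 to 0.36).

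In microglia 0 of 83 members passed (3 of 6378 genes, 0.0470%). That share of genes applies neither to an unadjusted p under 0.05, where edgeR gave 0 members, nor to DESeq2, which called 0 members. Their median was 0.18 and 70 of 83 lay above 0, but it fell to 0.04 without iECKO replicate 1 and rose to 0.33 without iECKO replicate 3. Rps19 had 663, 597 and 616 CPM in control and 935, 948 and 651 CPM in iECKO microglia (0.42 ± 0.21, adjusted p = 0.998). Rps6 and Rps2 stood at 0.42 and 0.40, and Rps27rt, Rps27 and Rpl10 at -0.60, -0.30 and -0.13. In pericytes 0 of 80 passed (1 of 3065 genes, 0.0326%), and DESeq2, to which that share does not apply, called 0. At an unadjusted p under 0.05, a level to which that share of genes does not apply, edgeR gave 1 member. That one was Rpl23a, with 186, 175 and 157 CPM in control and 307, 398 and 261 CPM in iECKO pericytes; the groups did not overlap (0.90 ± 0.28, adjusted p = 0.68). The members' median in pericytes was -0.03, and 0.28 without control replicate 1. With the block 0 members passed in microglia (0.158% of genes) and 0 in pericytes (0.416%).

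A capillary state with tip-cell markers, which holds most of its cells in the iECKO libraries (2524, 376 and 152 cells, against 19 to 23 in each control), differed by member. Against other capillary cells of the iECKO libraries, 51 of 83 members were higher and 0 lower (20.3% and 16.7% of all genes), with a median of 0.27. Rps2 had 854, 673 and 831 CPM in other capillary cells and 1495, 1304 and 1874 in tip-like cells (0.98 ± 0.08, adjusted p = 1.8e-11). Rpsa, which is also known as the laminin receptor, had 728, 535 and 669 CPM and then 1132, 1030 and 1344 CPM (0.86 ± 0.08, adjusted p = 4.7e-10). Rplp0 rose by 0.75, Rpl7a by 0.71, Rpl12 by 0.67 and Rpl36al by 0.66. For Rps2, Rpsa and Rplp0 the values of the 3 libraries did not overlap between the cell groups. Rps27rt, Rpl21 and Rps27 stood at -0.15, -0.06 and -0.05 and did not pass. Rpl38 did not pass either (0.20 ± 0.08, adjusted p = 0.052).

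In the tip-like cells the ribosome biogenesis list moved further than the members. Of 44 such genes 37 rose and 0 fell, with a median of 0.69, where 20.3% of all genes rose and 16.7% fell. Myc, a transcription factor that drives ribosome production, stood at 3.02 ± 0.51 (adjusted p = 1.2e-05), Gar1 at 1.11 and Nolc1 at 0.84. Of 30 translation factors 22 rose and 1 fell, with Eif4a1, the cap-binding complex's helicase, at 1.07. Among 28 mTORC1 and TOP genes 4 rose, Eif4ebp1 by 1.37 among them, and 8 fell, including Ddit4, which fell by 1.14. The members' count depended on what tip-like cells were set against. Without the subcluster led by Gm26917 13 members were higher and 5 lower (18.6% and 15% of genes), with a median of 0.02. Among cells of 4000 to 8000 UMIs 19 were higher and 0 lower (14% and 10.6%), and without iECKO replicate 2 or iECKO replicate 3 24 and 30 were (1517 of 11910 and 2088 of 11153 genes). The biogenesis and other lists were not counted in these settings, so whether their rise depends on them was not tested.

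Endothelial cells of the iECKO libraries without a Cldn5 UMI were compared with those with at least 2. In cells without a Cldn5 UMI 63 of 84 members were lower and 0 higher (6.56% and 6.58% of all genes), with a median of -0.19. Rpl38 had 2921, 1738 and 2295 CPM in cells with Cldn5 UMIs and 1921, 1293 and 1733 CPM in those without (-0.48 ± 0.05, adjusted p = 3.8e-14). It was lower in each library, while the ranges overlapped. Rplp0 fell by 0.33, Rpl10a and Rps2 by 0.31 each, Rps3a1 by 0.30 and Rpl32 by 0.28. In the iECKO libraries cells without a Cldn5 UMI were shallower, with medians of 3502, 4027 and 4809 UMIs against 5280, 5928 and 6354, and a cell with few UMIs can lack a Cldn5 UMI by sampling. The split also pools all endothelial zones and states, between which Cldn5 differs. In the iECKO libraries it stood at 1718.5, 1811 and 2619 CPM in arterial and 2746.5, 2280 and 3469 CPM in capillary cells. Depth, zone or state, and loss of Cldn5 cannot be told apart in this split. The count of lower members was 16 without iECKO replicate 1 (336 of 11604 genes lower), 17 without iECKO replicate 2 (502 of 12361) and 32 of 83 (521 of 11400) with a stricter cell filter (at least 2000 UMIs and at most 5% mitochondrial UMIs). In the controls, compared as an addition, 4 members were higher and 1 lower (14% and 13.5% of genes); the one lower was again Rpl38 (-1.06 ± 0.12). There the depth differed otherwise, with medians of 5800, 3689 and 7519 UMIs without a Cldn5 UMI and 3987, 4297 and 5086 with at least 2.

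The 4 X-linked members (Rpl10, Rpl36a, Rpl39 and Rps4x) did not move as a unit. All 4 rose in venous cells, by 0.96 to 1.08, and all fell in pericytes, but in microglia Rpl10 rose, Rpl36a fell, and Rpl39 (0.10 ± 0.12) and Rps4x (-0.20 ± 0.12) did not pass. In the iECKO against control comparison of endothelial cells they lay between -0.14 and 0.02, and none passed.

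Among 3323 non-members with at least 50 CPM in control endothelial cells, the 10 whose log2 CPM followed the summed share most closely over 24 sums of library and class were Eef1a1 (Pearson r = 0.91), Naa38, Eef1b2, Snrpe, Actg1, Hint1, Rack1, Ndufa4, Ubl5 and Ufc1 (r = 0.84). The 24 sums share 6 libraries and 4 classes, so these are descriptions. Eef1a1, Eef1b2 and Rack1 are part of the translation apparatus.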

How the data were processed

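The deposited values are raw UMI counts per gene and barcode, and per the file headers the authors produced them with Cell Ranger 6.1.1. The submitters' processing notes name mm10 and Seurat. Kept barcodes had at least 1000 UMIs, 500 genes and at most 15% mitochondrial UMIs; the highest Scrublet scores (0.8% per 1000 barcodes) were removed as doublets. Scanpy 1.11.5 clusters were built without the members. Counts were summed per library and class or zone with at least 20 cells and tested with edgeR 4.0.16 (robust quasi-likelihood, TMM, filterByExpr, two-sided; adjusted p under 0.05 over all genes); zones and classes had library as a block. DESeq2 1.42.0 was an alternative, run in R 4.3.3. The scripts' tests were tested on simulated data. CPM are TMM-scaled; summed shares, and CPM of Cldn5, are plain ratios.

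Same-numbered libraries deviated together in endothelial cells (r = 0.42, 0.51 and 0.48 over 13216 genes), so replicate number was also fitted as a block. Named genes were, per comparison, the 6 members with the largest change each way among those called, or the 3 with the smallest p where fewer than 3 were called, with the highest and lowest members, copies by name and X-linked members. The members and lists were chosen with earlier results of these data known. A few genes that this rule names are not reported here.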

Additional observations from a re-analysis of the deposited data

Results flagged for a closer look

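Rps19, a small-subunit protein, had genotype differences of opposite sign in endothelial cells and microglia. In endothelial cells it was lower in the iECKO library of every replicate number, with 1412, 997 and 1276 CPM against 1789, 1144 and 1384 in the controls. In microglia it was higher in each, with 935, 948 and 651 CPM against 663, 597 and 616, a log2 change of 0.42. Neither difference passed (adjusted p = 0.998 in microglia by edgeR), and most members lay the same way, with 59 of 84 below 0 in endothelial cells and 70 of 83 above 0 in microglia. The microglia median of 0.18 was 0.04 without iECKO replicate 1. For Rps19 the difference between the 2 classes was not tested.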

How the results depend on the processing

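With 1 library left out 81 to 82 members were higher in venous cells and 80 lower in pericytes, and 0 passed for genotype in endothelial cells, microglia or pericytes, though the genotype medians in endothelial cells and pericytes changed sign. In arterial cells 24 members passed in the iECKO libraries and 38 without the subcluster led by Gm26917. In tip-like cells 19 passed at 4000 to 8000 UMIs, 18 without that subcluster, and 24 to 68 with 1 library left out. Between cells without and with Cldn5 UMIs 32 passed with the stricter cell filter and 16 to 65 with 1 library left out, and replicate number gave 6 to 62. The arterial minus capillary share of 0.972 percentage points became 0.735 without mitochondrial genes, Gm42418 and AY036118, 1.79 as a mean over cells, 1.19 with the stricter filter, 1.41 at 4000 to 8000 UMIs and -0.575 without the subcluster. The venous minus capillary share of 5.93 became 4.57 at that depth and 4.39 without the subcluster, the tip-like minus capillary share of 0.890 became -0.423 without it, and the smooth muscle minus endothelial share of -0.483 became 0.562 as a mean over cells. For smooth muscle against endothelial cells 18 members passed with no filter on low counts, against 35. The cause was not tested. With replicate number as a block the endothelial, pericyte and microglia genotype fits still gave 0 members, and the zone and smooth muscle fits gave those named above. The depth band and the subcluster were chosen after seeing the data. The stricter filter left pericytes under 20 cells a library, so it was not run there.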
